A study of Mus musculus with 27 samples.

Results

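The genes described here are 7 CC chemokines that attract monocytes (Ccl2, Ccl3, Ccl4, Ccl6, Ccl7, Ccl8 and Ccl9) and the chemokine receptors Ccr1 and Ccr2. They were chosen by gene symbol, and all 9 were found among the 39971 genes of the deposited table. The samples were colon RNA from 27 wild-type BALB/c mice in 5 groups. NC were mice given saline (n = 6, colon), without carcinogen. The other 4 groups had received AOM/DSS, that is the mutagen azoxymethane followed by dextran sulfate sodium, which injures the colon lining, together a model of colitis-associated cancer, and a tumor-bearing segment of the colon was sampled. CAC then received saline (n = 5), CAC_F the chemotherapy FOLFOX (folinic acid, fluorouracil and oxaliplatin) by intraperitoneal injection with saline by gavage (n = 5), CAC_FP FOLFOX with complex probiotics by gavage (n = 5), and CAC_FPL FOLFOX with the probiotics and the antidiarrheal opioid loperamide by gavage (n = 6). Collection was 1 week after chemotherapy began. AOM/DSS exposure and the kind of tissue sampled coincide in NC against CAC and cannot be told apart there.

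Chemokines are small secreted proteins that guide leukocytes along a gradient through receptors coupled to G proteins. Ccr2, the receptor of Ccl2 and Ccl7 on inflammatory monocytes, is needed for these cells to leave the bone marrow, and in the colon they replenish the macrophages of the lamina propria and gather during inflammation. Ccr1 binds Ccl3, Ccl6, Ccl7 and Ccl9 among others and is found on monocytes, macrophages and neutrophils, whereas mouse Ccl8 is best known as a ligand of Ccr8. Ccl2 and Ccl7 are induced in many cell types by inflammatory cytokines, while Ccl6 and Ccl9 are made constitutively by myeloid cells and, in the gut, also by epithelial cells.

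The 7 ligand genes stood in 2 clusters on chromosome 11 and the receptors together on chromosome 9. Coordinates are those of the deposited table, for which the sources used here name no genome build: Ccl2 (ENSMUSG00000035385) was at chr11:81926397-81928279 and Ccl7 (ENSMUSG00000035373) at chr11:81936538-81938351, 8259 bases apart on the plus strand, followed by Ccl8 (ENSMUSG00000009185) at chr11:82006011-82007625. The second cluster held Ccl9 (ENSMUSG00000019122) at chr11:83463745-83469462, Ccl6 (ENSMUSG00000018927) at chr11:83478708-83483913, Ccl3 (ENSMUSG00000000982) at chr11:83538670-83540181, all on the minus strand, and Ccl4 (ENSMUSG00000018930) at chr11:83553410-83555509 on the plus strand. Ccr1 (ENSMUSG00000025804) was at chr9:123762161-123768729 on the minus strand and Ccr2 (ENSMUSG00000049103) at chr9:123901987-123913594 on the plus strand. Gene models overlapped Ccl3 (Gm53692) and Ccl6 (E230016K23Rik) on the opposite strand, with group means between 0.187 and 0.398 CPM for both. The sources used here do not say whether counting used the strand, so reads of Ccl3 and Gm53692, both low in NC and CAC, cannot be told apart.

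Promoter windows from RefSeq (GRCm38.p6) matched 6 of the 9 genes: Ccl3, Ccl6, Ccl8, Ccl9, Ccr1 and Ccr2. The windows of Ccl3 (chr11:83649379-83649628, minus strand), Ccl9 (chr11:83578637-83578886, minus strand), Ccr1 (chr9:123968693-123968942, minus strand) and Ccr2 (chr9:124101933-124102182, plus strand) are shown because the first 3 of these genes rose after FOLFOX and Ccr2 fell. Each holds the 250 bases before the annotated start, 5′ to 3′ on the gene's strand, with the bases matched by a searched motif in capitals.
Ccl3: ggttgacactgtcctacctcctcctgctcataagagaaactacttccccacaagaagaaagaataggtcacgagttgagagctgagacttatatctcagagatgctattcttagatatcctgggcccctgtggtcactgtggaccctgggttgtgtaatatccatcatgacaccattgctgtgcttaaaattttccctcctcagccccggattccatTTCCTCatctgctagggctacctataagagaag
Ccl9: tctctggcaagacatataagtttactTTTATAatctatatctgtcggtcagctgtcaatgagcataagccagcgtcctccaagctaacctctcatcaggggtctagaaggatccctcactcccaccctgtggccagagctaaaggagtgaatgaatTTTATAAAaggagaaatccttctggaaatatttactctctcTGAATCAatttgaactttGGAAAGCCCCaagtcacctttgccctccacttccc
Ccr1: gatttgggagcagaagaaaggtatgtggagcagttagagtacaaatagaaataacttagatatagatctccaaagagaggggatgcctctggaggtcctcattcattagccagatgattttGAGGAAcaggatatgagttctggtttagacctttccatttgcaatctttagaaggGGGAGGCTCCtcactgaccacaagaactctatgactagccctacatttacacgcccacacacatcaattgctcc
Ccr2: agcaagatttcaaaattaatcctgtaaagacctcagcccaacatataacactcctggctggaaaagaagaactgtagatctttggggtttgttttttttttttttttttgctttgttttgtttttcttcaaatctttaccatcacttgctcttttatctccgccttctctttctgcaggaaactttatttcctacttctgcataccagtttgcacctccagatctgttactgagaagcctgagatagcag
Motifs were searched on both strands: an NF-kB site, AP-1 (TGANTCA), PU.1 (GAGGAA), C/EBP (TTGCNNAA), an interferon-stimulated response element and a TATA box (TATAAA). The Ccl9 window held an NF-kB match 35 to 26 bases before the start, an AP-1 match 53 to 47 bases before it, and TATA matches, 2 of which overlap each other. In the Ccr1 window an NF-kB match lay 74 to 65 bases and a PU.1 match 129 to 124 bases before the start. The Ccl3 window held a PU.1 match 33 to 28 bases before the start, and the Ccr2 window held no match to these letters. Windows of Ccl8 and Ccl6, neither called in CAC_F against CAC, are not shown. That of Ccl8 held a PU.1 match 240 to 235 bases and a TATA match 32 to 27 bases before the start. That of Ccl6 held no match. Among all 32851 windows of this length 7.25% held the NF-kB motif, 6.75% AP-1, 23.3% PU.1, 9.56% C/EBP, 2.98% the interferon element and 12.4% the TATA box. Matches are letters in a window and not measured binding.

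Levels are given as CPM, library-scaled counts with TMM factors, and log2 fold changes with an approximate standard error (SE) from edgeR's quasi-likelihood test. A gene is called changed at a Benjamini-Hochberg adjusted p below 0.05 over the 15080 genes that reached an FPKM of 1 in 5 or more libraries. Total counts ran from 56687812 to 79709845 per library, and 37962 genes had a count. All 9 genes passed the filter, but 5 of them entered the test through groups in which they were high. Ccl4 reached an FPKM of 1 in 1 library of CAC, 3 of CAC_F and 1 of CAC_FP, and Ccl3 in no library of NC or CAC. Ccl2 reached it in 3 libraries of NC and 1 of CAC and Ccl7 in 2 and 1, so that both passed only with the FOLFOX groups, in which every library reached it. Ccr2 reached it in 4 libraries of NC, 4 of CAC and 3 of CAC_FPL and in none of CAC_F or CAC_FP. Hoxa13, a gene of the most distal colon, stood apart in 1 library each of NC (replicate 4, 38.8 CPM), CAC (replicate 2, 37.2 CPM) and CAC_FPL (replicate 3, 56.4 CPM), against 1.59 to 7.6 CPM in the other libraries of these groups, and was 1.6, 19.2, 27.1, 14.8 and 11.6 CPM in CAC_F and 0.538 to 3.83 CPM in CAC_FP. It was thus higher in 4 of the 5 CAC_F libraries than in every CAC library but replicate 2, and its part, or that of the position of the segment, in the differences of CAC_F from the other groups was not tested. The summed level of 5 hemoglobin and other red cell genes was 24.67 to 256.6 CPM in NC and CAC and 0.0826 to 0.561 CPM in CAC_F and CAC_FP. In CAC_FPL it was 176.3, 58.2 and 32.9 CPM in replicates 1 to 3 and 0.0994, 0.602 and 3.59 CPM in replicates 4 to 6.

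Per length of transcript, Ccl6 was the most abundant of the 7 ligands in every group mean. In FPKM it ranged from 119 to 202 in NC and from 53.9 to 319 in CAC, followed by Ccl8 (42.0 to 90.6 in NC, 35.0 to 94.7 in CAC) and Ccl9 (11.5 to 17.9 in NC, 8.41 to 14.9 in CAC). The other ligands were scarce in the groups without chemotherapy: the highest library of NC and CAC had an FPKM of 1.7 for Ccl2, 2.06 for Ccl7, 0.7 for Ccl3 and 1.13 for Ccl4. Of the receptors, Ccr1 had 2.55 to 6.18 FPKM and Ccr2 0.9 to 2.34 FPKM in these groups. Within each NC and CAC library the order was Ccl6, Ccl8, Ccl9, Ccr1 and Ccr2, although the ranges of Ccl6 and Ccl8 overlapped across CAC libraries. Ccl2, Ccl3, Ccl4 and Ccl7 could not be ordered, since their ranges overlapped. The 1 library in which Ccl8 exceeded Ccl6 was CAC_FPL replicate 6 (38.4% against 36.0% of the summed ligand FPKM).

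**Figure D1:**
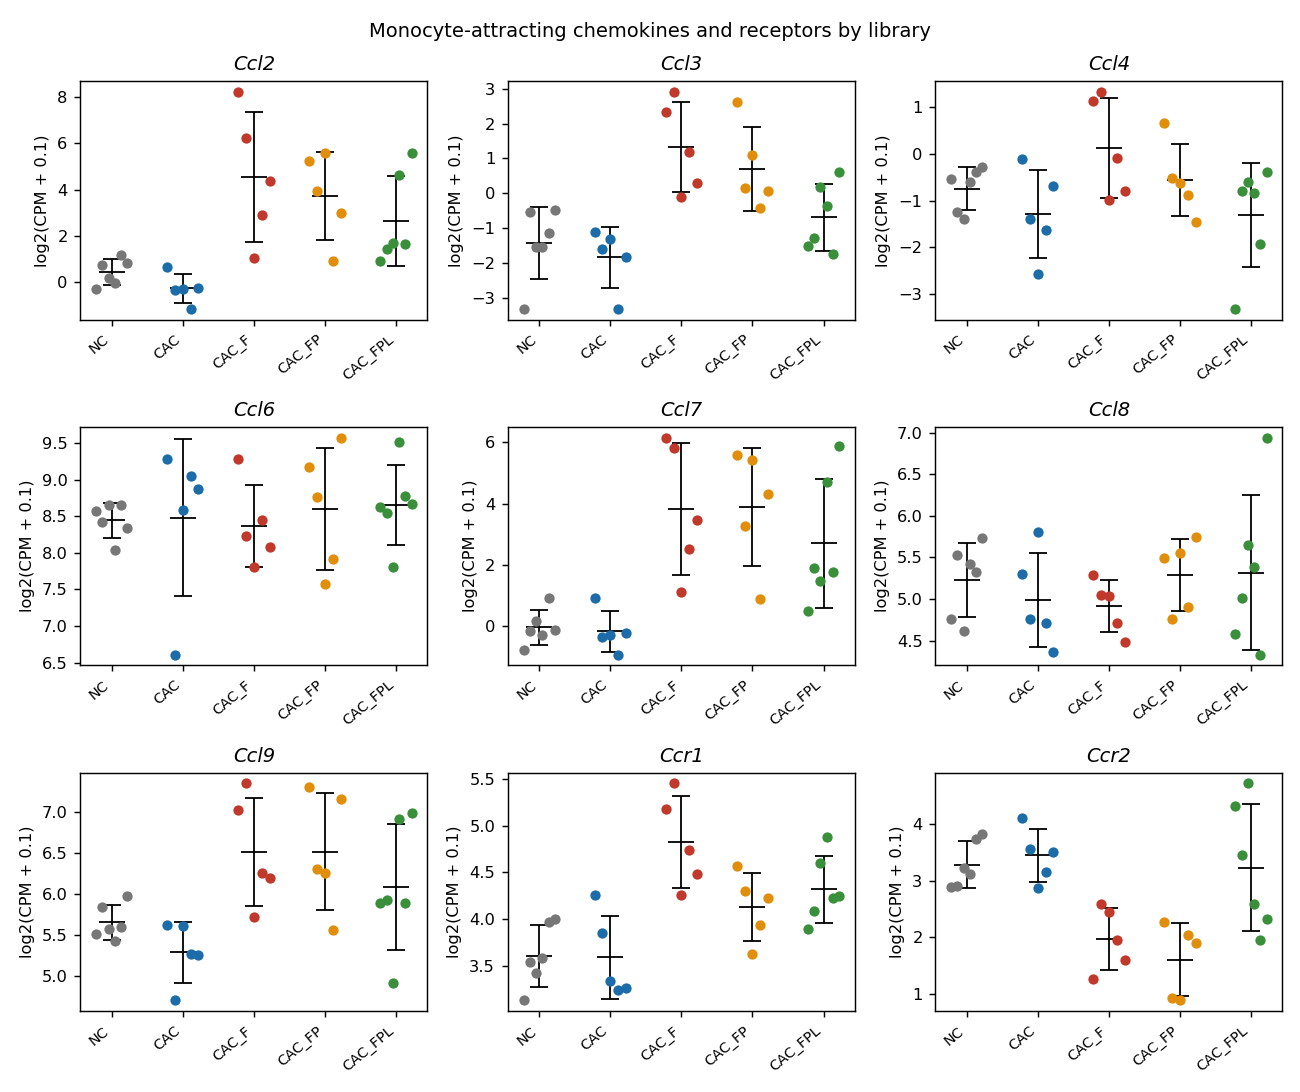
Levels of the 9 genes by library as log2(CPM + 0.1), 1 panel per gene, 1 point per library, with the group mean and SD as bars. Ccl2, Ccl3, Ccl7, Ccl9 and Ccr1 sit higher and Ccr2 lower in all 5 CAC_F libraries than in all 5 CAC libraries, and Ccl6 and Ccl8 overlap between all groups.

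CAC against NC addresses AOM/DSS exposure together with the tumor-bearing segment. No member of the set was called: 0 of 9, with adjusted p between 0.87 and 0.995 in edgeR and 0 members at an unadjusted p under 0.05. The share of all tested genes called in this comparison was 0.00663%, and 1164 genes had an unadjusted p under 0.05. DESeq2 and limma also called none of the 9. Ccl2, the main ligand of Ccr2, had 0.72, 1.58, 1.06, 0.88, 2.17 and 1.71 CPM in NC and 1.48, 0.70, 0.73, 0.36 and 0.75 CPM in CAC, so the groups overlapped, with a log2 fold change of -0.75 ± 1.03 (SE). Ccl6, the ligand with the highest FPKM, had 262.0 to 403.2 CPM in NC and 620.7, 97.7, 385.5, 527.9 and 467.1 CPM in CAC. The spread was wider in CAC, and the low library was replicate 2, the one with the high Hoxa13 level.

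FOLFOX was given to CAC_F and not to CAC, and this comparison addresses the chemotherapy in the tumor-bearing segment. The inducible ligands Ccl2, Ccl3 and Ccl7, the ligand Ccl9 and the receptor Ccr1 rose, and the receptor Ccr2 fell. That makes 5 members higher and 1 lower, 6 of 9, beside 39.1% of all tested genes called in this comparison (19.0% higher and 20.2% lower). Of these 6, Ccl2, Ccl3, Ccl7 and Ccr2 passed the filter only through groups in which they were high, so the count is a description and is not set against that share. With no filter the same 6 genes were called. In all 6 the groups did not overlap, as was the case for 20.8% of all tested genes (10.9% higher and 9.88% lower). The median log2 fold change of the 9 genes was 1.31 and that of all tested genes -0.03.

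Ccl2, which draws Ccr2-bearing monocytes, reached 299.4, 76.0, 2.00, 7.38 and 20.5 CPM in CAC_F against at most 1.48 CPM in CAC. Its lowest CAC_F library was thus just above the highest CAC library, and replicate 1 alone held more than the other 4 together. The log2 fold change was 6.64 ± 1.28 (SE, edgeR adjusted p = 0.000453), 5.06 without CAC_F replicate 1 (adjusted p = 0.00164) and 3.65 without CAC_F replicates 1 and 2 (adjusted p = 0.0115). The group means were 81.1 CPM in CAC_F and 0.805 CPM in CAC.

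Ccl7, a second ligand of Ccr2 that also binds Ccr1, had 71.0, 56.7, 2.10, 5.60 and 11.0 CPM in CAC_F and 1.80, 0.69, 0.73, 0.43 and 0.77 CPM in CAC. The same 2 CAC_F libraries, replicates 1 and 2, were high for Ccl2 and Ccl7. The log2 fold change was 5.04 ± 1.11 (edgeR adjusted p = 0.00125), 4.43 without replicate 1 (adjusted p = 0.00379) and 2.84 without replicates 1 and 2 (adjusted p = 0.038). On the log2(FPKM + 1) scale, which holds low genes down, limma gave differences of 3.80 for Ccl2 and 3.27 for Ccl7, and voom with quality weights gave 4.41 and 3.69, all called.

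Ccl3, a ligand of Ccr1 made by activated macrophages and neutrophils, had 4.91, 7.43, 0.82, 2.19 and 1.13 CPM in CAC_F and 0.37, 0.23, 0.30, 0 and 0.18 CPM in CAC. The CAC libraries held 24, 17, 18, 0 and 12 counts, so their level rests on few reads. Its log2 fold change was 3.92 ± 0.89 (edgeR adjusted p = 0.00161) and 2.69 without CAC_F replicates 1 and 2 (adjusted p = 0.0285). Ccl4, its neighbour on the opposite strand and a chemokine of activated macrophages and lymphocytes, was not called. Its CAC_F libraries had 2.12, 2.42, 0.40, 0.84 and 0.48 CPM and its CAC libraries 0.82, 0.28, 0.067, 0.225 and 0.53 CPM, and replicates 1 and 2 were again the highest. The log2 fold change of Ccl4 was 1.69 ± 0.70 with an edgeR adjusted p of 0.0565, and it was called by DESeq2 (adjusted p = 0.0359), by limma on both FPKM scales (0.0238 and 0.043), and in edgeR without CAC replicate 1 (0.0286), CAC_F replicate 3 (0.0347) or CAC_F replicate 5 (0.0402).

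Ccl9, a ligand of Ccr1 that is present without stimulus in myeloid cells, had 129.8, 162.7, 52.6, 76.3 and 73.2 CPM in CAC_F and 49.2, 25.9, 48.5, 38.2 and 37.9 CPM in CAC. Every CAC_F library was above every CAC library, but replicate 3 by little. The log2 fold change was 1.31 ± 0.35 (edgeR adjusted p = 0.00553), and without CAC_F replicates 1 and 2 it was 0.78 and no longer called (adjusted p = 0.114). Ccl6, its neighbour and another constitutive Ccr1 ligand, had 622.5, 300.7, 223.0, 349.0 and 270.0 CPM in CAC_F and was not called (log2 fold change -0.25 ± 0.39, edgeR adjusted p = 0.637). Ccl8 was not called either, at 22.3 to 38.9 CPM in CAC_F and 20.5 to 56.0 CPM in CAC (log2 fold change -0.14 ± 0.37, adjusted p = 0.784).

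The receptors moved in opposite directions. Ccr1 had 36.2, 43.7, 19.1, 26.6 and 22.3 CPM in CAC_F and 19.0, 14.3, 10.0, 9.34 and 9.52 CPM in CAC. The lowest CAC_F library (19.06 CPM) was barely above the highest CAC library (19.02 CPM), and the log2 fold change was 1.25 ± 0.25 (edgeR adjusted p = 0.0006). Ccr2, which marks inflammatory monocytes and is also found on some T cells and dendritic cells, had 2.31, 5.89, 5.33, 3.78 and 2.93 CPM in CAC_F and 17.2, 11.7, 7.26, 8.85 and 11.3 CPM in CAC. All CAC_F libraries were below all CAC libraries. Its log2 fold change was -1.48 ± 0.44 (edgeR adjusted p = 0.0103), and the CAC_F libraries highest for Ccl2 included both the lowest (replicate 1) and the highest (replicate 2) for Ccr2.

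Markers of cell types are given for the same comparison, in which 19.0% of all tested genes were higher and 20.2% lower. A count near or below these shares, as for mast cells, fibroblasts and epithelium, is not read as a shift of that cell type. Of 17 tested monocyte and macrophage markers 8 were higher and none lower, among them Cd14, Mrc1 and C1qa, while Csf1r, Adgre1 and Ly6c2 were not called. Their summed level over 18 genes was 2277 to 3690 CPM in CAC_F and 1555 to 2188 CPM in CAC, with replicate 2 of CAC_F the highest. Neutrophil markers (3 higher and 0 lower of 6 tested, 10 listed) summed to 287.9 to 1074 CPM in CAC_F and 13.9 to 137.5 CPM in CAC, where Camp was at 0 in every library. Most of the sum in CAC_F was Ly6g (mean 664.7 CPM in CAC_F and 20.8 CPM in CAC), while Csf3r and Retnlg were not called. T and NK cell markers (0 higher and 9 lower of 10 tested, 11 listed) summed to 32.5 to 51.5 CPM in CAC_F and 43.8 to 142.3 CPM in CAC. Dendritic cell markers (0 higher and 2 lower of 3 tested, 7 listed) summed to 12.9 to 19.4 and 33.3 to 65.5 CPM, and smooth muscle markers (0 higher and 7 lower of 7 tested, 8 listed) to 1167 to 2081 and 2503 to 11710 CPM. Red cell genes, 4 lower of 4 tested, are given above, with Hbb-bs and Hbb-bt at 0 in every CAC_F library. B and plasma cell markers were lower in 3 of 7, mast cell markers in 2 of 7, and eosinophil markers in 2 of 2 tested, with none higher. Here and below, the tested eosinophil markers include the chemokine receptor Ccr3. Of 9 epithelial markers 1 was higher, of 7 fibroblast markers 1 was higher and 1 lower, and of 6 endothelial markers none was called. The part of these marker differences in the changes of the 9 genes was not tested. In bulk tissue, fewer cells of a type and less RNA per cell cannot be told apart.

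**Figure D2:**
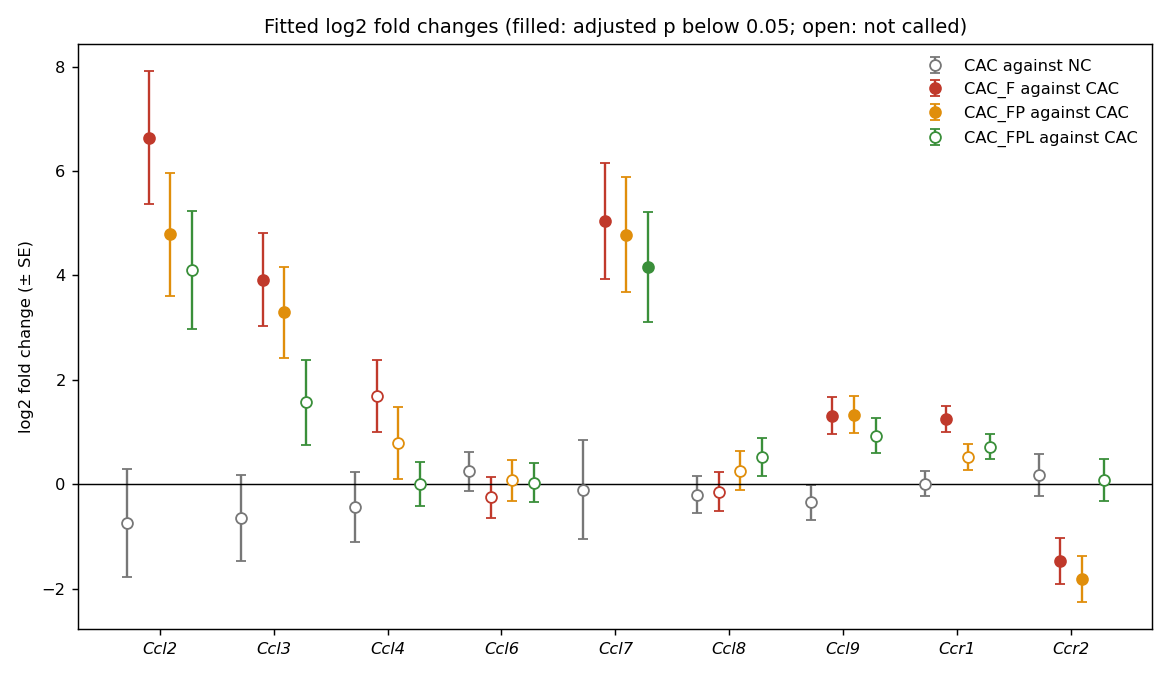
Fitted log2 fold changes with their SE for the 9 genes in CAC against NC and in each FOLFOX group against the same CAC libraries; filled points are called. Ccl2 and Ccl7 have the largest positive values in all 3 FOLFOX groups, and Ccr2 is filled below 0 in CAC_F and CAC_FP but stands at 0.08 in CAC_FPL.

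CAC_FP received the probiotics in addition to FOLFOX. Against CAC, whose libraries also served the comparison above and that with CAC_FPL, Ccl2, Ccl3, Ccl7 and Ccl9 rose and Ccr2 fell, 5 of 9 beside 18.6% of all tested genes (9.68% higher and 8.9% lower). The limit from the filter holds here too, and with no filter the same 5 were called. The groups did not overlap for Ccl2, Ccl3 and Ccr2, as for 10.1% of all tested genes. The median log2 fold change was 0.79 for the 9 genes and -0.03 for all. Ccl2 had 38.3, 15.3, 48.5, 1.78 and 8.00 CPM in CAC_FP, all above the CAC libraries, and Ccl7 had 47.6, 9.48, 43.3, 1.75 and 20.0 CPM. Replicate 4 was the low library for both, and for Ccl7 it was below CAC replicate 1. Log2 fold changes were 4.79 ± 1.18 for Ccl2 (edgeR adjusted p = 0.00907, but 0.07 with quantile-normalized voom) and 4.78 ± 1.10 for Ccl7 (adjusted p = 0.00622).

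Ccl3 had 6.02, 1.01, 2.06, 0.64 and 0.94 CPM in CAC_FP, with replicate 1 apart from the other 4. Its log2 fold change against CAC was 3.29 ± 0.87 (edgeR adjusted p = 0.0133) and 2.44 without CAC_FP replicate 1 (adjusted p = 0.0485). Ccl9 had 157.5, 79.1, 76.0, 47.0 and 142.6 CPM and a log2 fold change of 1.33 ± 0.35 (adjusted p = 0.0133), with replicate 4 within the range of CAC. Ccr1 had 23.7, 19.6, 12.3, 15.2 and 18.7 CPM, overlapped with CAC and was not called (0.52 ± 0.25, adjusted p = 0.135). It was called without CAC replicate 1 (0.73, adjusted p = 0.0497) and with voom and quality weights (0.81, adjusted p = 0.00795). Ccr2 had 4.71, 1.81, 1.75, 4.01 and 3.65 CPM, all below CAC, with a log2 fold change of -1.82 ± 0.44 (adjusted p = 0.00842). The summed monocyte and macrophage markers (4 of 17 higher) were 1555 to 2560 CPM in CAC_FP, and the summed neutrophil markers (1 of 6 higher) 103.3 to 669.3 CPM. The median log2 fold change of the 6 tested neutrophil markers against CAC was -0.12, so their sum does not stand for each of them. Lower in CAC_FP than in CAC were 3 of 3 tested dendritic cell markers (summed 13.0 to 18.5 CPM), 7 of 7 smooth muscle markers (748 to 2494 CPM), 4 of 4 red cell genes, 2 of 2 eosinophil markers, 3 of 7 B and plasma cell markers, 1 of 10 T and NK cell markers and 1 of 7 mast cell markers. Of all tested genes, 9.68% were higher and 8.9% lower in CAC_FP than in CAC. The part of any of these markers in the differences was not tested.

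Set directly against CAC_F, CAC_FP had no called member (0 of 9 in edgeR, beside 0% of all tested genes). The same 0 was found by DESeq2 and limma, 2401 genes had an unadjusted p under 0.05, and Ccr1 was the 1 member among them. Ccr1 had a log2 fold change of -0.73 ± 0.25 (edgeR adjusted p = 0.177) with overlapping groups. For Ccl2 the value was -1.86 ± 1.02 (adjusted p = 0.379), for Ccl7 -0.26 ± 0.93 (adjusted p = 0.915) and for Ccr2 -0.35 ± 0.43 (adjusted p = 0.718). The sign of the Ccl2 and Ccl7 differences rests on CAC_F replicates 1 and 2: without both, they were 1.16 and 1.96, neither called. The SE of Ccl2 and Ccl7 is about as large as a doubling, so differences of that size between these groups were not detectable.

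CAC_FPL received loperamide with the probiotics and FOLFOX. Its libraries split for Ccl2 and Ccl7: Ccl2 had 1.79, 2.65, 3.12, 24.8, 3.02 and 48.5 CPM and Ccl7 1.31, 3.63, 2.68, 26.0, 3.34 and 58.4 CPM, with replicates 4 and 6 high for both. In these libraries the fibroblast markers summed to 3248 and 5791 CPM, against 1424 to 2325 CPM in the other 4, and the endothelial markers to 318.5 and 264.2 CPM, against 128.7 to 214.6 CPM. These lists were picked from the cell type lists. The summed monocyte and macrophage markers did not split this way (2393 and 2826 CPM, against 2981 CPM in replicate 3). In CAC_F the fibroblast markers summed to 1551 and 3487 CPM in replicates 1 and 2, the highest for Ccl2, and to 3291 CPM in replicate 5. The part of the fibroblast and endothelial markers in the split was not tested. Against CAC, 1 member was called higher (Ccl7) and 0 lower, beside 1.41% of all tested genes called (0.882% higher). Ccl7 passed the filter only with the FOLFOX groups, so this count too is a description and is not set against that share. With no filter Ccl7 was not called (edgeR adjusted p = 0.0938). The median log2 fold change was 0.71 for the 9 genes and -0.0031 for all. Ccl7 rose by 4.16 ± 1.06 (edgeR adjusted p = 0.0472), a call that was lost without CAC replicate 1 (adjusted p = 0.0592), 3 (0.1), 4 (0.141) or 5 (0.115) and without CAC_FPL replicate 4 (0.0789), 5 (0.0669) or 6 (0.11, log2 fold change 3.08).

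Ccl2, which also passed the filter only with the FOLFOX groups, was above CAC in every CAC_FPL library, as were 0.928% of all tested genes. Its log2 fold change was 4.11 ± 1.13. It was not called in edgeR (adjusted p = 0.0611). It was called by DESeq2 (adjusted p = 0.000949) and in edgeR without CAC_FPL replicate 3 (4.34, adjusted p = 0.0353). Ccl9 had 59.2, 60.7, 30.0, 120.2, 59.3 and 126.6 CPM, the high libraries again being replicates 4 and 6, and its value of 0.93 ± 0.34 was called only without CAC_FPL replicate 3 (1.11, adjusted p = 0.0466). Ccr1 had 14.8, 16.9, 24.2, 29.3, 18.6 and 18.8 CPM (0.71 ± 0.24, edgeR adjusted p = 0.111, DESeq2 adjusted p = 0.049). Ccl8 had 23.8, 32.0, 50.2, 41.7 and 20.0 CPM in replicates 1 to 5 and 122.8 CPM in replicate 6, the highest Ccl8 value of all 27 libraries.

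Ccr2 in CAC_FPL had 19.8, 10.9, 26.2, 5.91, 3.77 and 4.92 CPM. Replicates 1 to 3 lay within or above the range of CAC (7.26 to 17.2 CPM) and replicates 4 to 6 within the range spanned by CAC_F and CAC_FP or just above it. Against CAC_F its log2 fold change was 1.56 ± 0.43 (edgeR adjusted p = 0.0226), with overlapping groups. The call was lost without CAC_F replicate 1 (adjusted p = 0.0724), CAC_FPL replicate 1 (0.0699) or CAC_FPL replicate 3 (0.0747, log2 fold change 1.14). Against CAC_FP it was 1.901 ± 0.43 with an edgeR adjusted p of 0.472, and it was called there by DESeq2 (0.00662) and by voom with quality weights (0.0266). Against CAC the value was 0.08 ± 0.41 (edgeR adjusted p = 0.936) and changed sign with the setting.

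The libraries high in Ccr2 were those in which red cell genes were present (32.9 to 176.3 CPM in replicates 1 to 3, 0.0994 to 3.59 CPM in replicates 4 to 6), and replicate 3 was the library high in Hoxa13. Dendritic cell markers summed to 27.2, 24.5 and 36.4 CPM in replicates 1 to 3 and to 19.1, 14.7 and 22.5 CPM in replicates 4 to 6. T and NK cell markers summed to 36.35, 52.42 and 78.01 CPM in replicates 1 to 3. In replicates 4 to 6 they summed to 46.56, 36.58 and 39.74 CPM, so the ranges overlapped. These lists were picked from the cell type lists. The summed monocyte and macrophage markers were 1640, 1561 and 2981 CPM and then 2393, 1623 and 2826 CPM, so they did not follow the same order. The part of these differences between libraries in the Ccr2 result was not tested.

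Against CAC_F, 1 member was higher (Ccr2) and 1 lower (Ccl3) in CAC_FPL, 2 of 9 beside 12.2% of all tested genes (7.14% higher and 5.05% lower). Both passed the filter only through groups in which they were high, so the count is a description and is not set against that share. With no filter neither was called (edgeR adjusted p = 0.0524 for Ccr2 and 0.101 for Ccl3). The median log2 fold change was -0.53 for the 9 genes and 0.02 for all. Ccl3 had 0.25, 0.31, 1.03, 0.67, 0.20 and 1.42 CPM in CAC_FPL and fell by 2.35 on the log2 scale (SE 0.77, edgeR adjusted p = 0.0471). This call was lost without CAC_F replicate 1 (adjusted p = 0.106), 2 (0.155) or 4 (0.0513) and without CAC_FPL replicate 1 (0.107), 2 (0.105), 3 (0.0641), 4 (0.0564) or 5 (0.0658), and without CAC_F replicates 1 and 2 the log2 fold change was -1.11 (adjusted p = 0.498). Ccl2 had a value of -2.54 ± 0.98 and was not called (edgeR adjusted p = 0.0832). It was called by DESeq2 (0.0332) and in edgeR without CAC_F replicate 3 (0.0396) or CAC_FPL replicate 6 (0.0247, log2 fold change -3.52), and turned to 0.48 without CAC_F replicates 1 and 2. Ccl4 (-1.69 ± 0.65, adjusted p = 0.0834) and Ccr1 (-0.53 ± 0.24, adjusted p = 0.125) were not called in edgeR, and both were called by voom with quality weights (Ccl4 -2.81, adjusted p = 0.0332, and Ccr1 -0.55, adjusted p = 0.0444).

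Against CAC_FP, the comparison that differs by loperamide, CAC_FPL had no called member (0 of 9 in edgeR, beside 0% of all tested genes). There were 995 genes with an unadjusted p under 0.05, 2 of them members, Ccr2 and Ccl3. DESeq2 and voom with quality weights called 1 member each, Ccr2 in both. Ccl3 had a log2 fold change of -1.72 ± 0.76 (edgeR adjusted p = 0.745).

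The make-up of the ligand pool shifted with these levels. Ccl6, Ccl8 and Ccl9 together made nearly all of the summed FPKM of the 7 ligands in NC and CAC, and the share of Ccl2 and Ccl7 was 0.428% to 1.28% in NC and 0.229% to 1.25% in CAC. In the FOLFOX groups it ran from 2.06% to 42.5% (CAC_F), from 1.75% to 29.9% (CAC_FP) and from 1.1% to 18.5% (CAC_FPL). Every CAC_F and CAC_FP library thus had a larger share of the Ccr2 ligands than any NC or CAC library, while CAC_FPL overlapped with both. The share of Ccl6 was 46.2% to 82.5% in CAC and 38.4% to 67.5% in CAC_F. The summed FPKM of the 7 ligands overlapped between groups (117 to 409 in CAC, 207 to 733 in CAC_F).

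**Figure D3:**
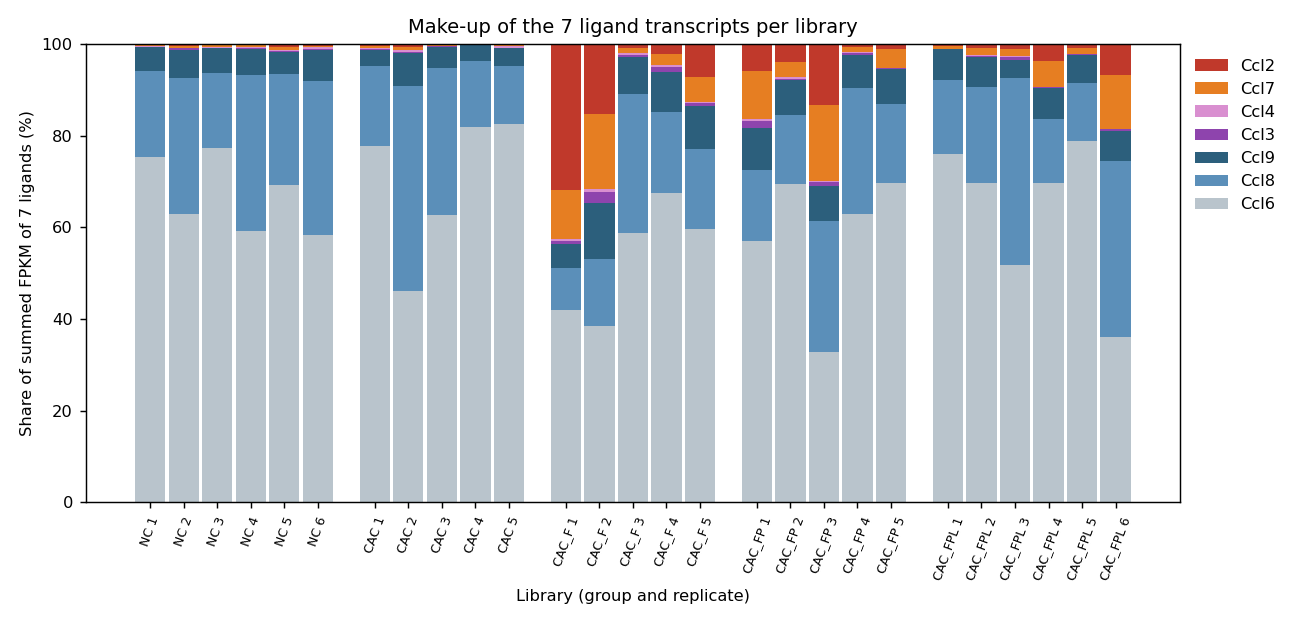
Share of each ligand in the summed FPKM of the 7 ligands, 1 bar per library, adding to 100%. Ccl2 and Ccl7 are barely visible in NC and CAC (at most 1.28%) and reach 42.5% in CAC_F replicate 1.

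Ccl2 and Ccl7 varied together between libraries of a group. After subtracting each group's mean log2 CPM, Pearson's r between them was 0.953 and Spearman's rho 0.929 over the 27 libraries, and r was 0.958 without the 2 libraries farthest from the median of Ccl2. For Ccl7 and Ccl9 r was 0.795 and rho 0.77, and r was 0.726 without the 2 libraries farthest from the median of Ccl7. Ccl2 and Ccr2 had an r of -0.632 over all libraries but -0.347 within groups and -0.251 without the 2 farthest, a weak relation once the groups are removed. These 3 pairs were picked from 36 and are given as a description with no p. Libraries share depth and cell make-up, so the correlations are not evidence on any 1 cell type.

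**Figure D4:**
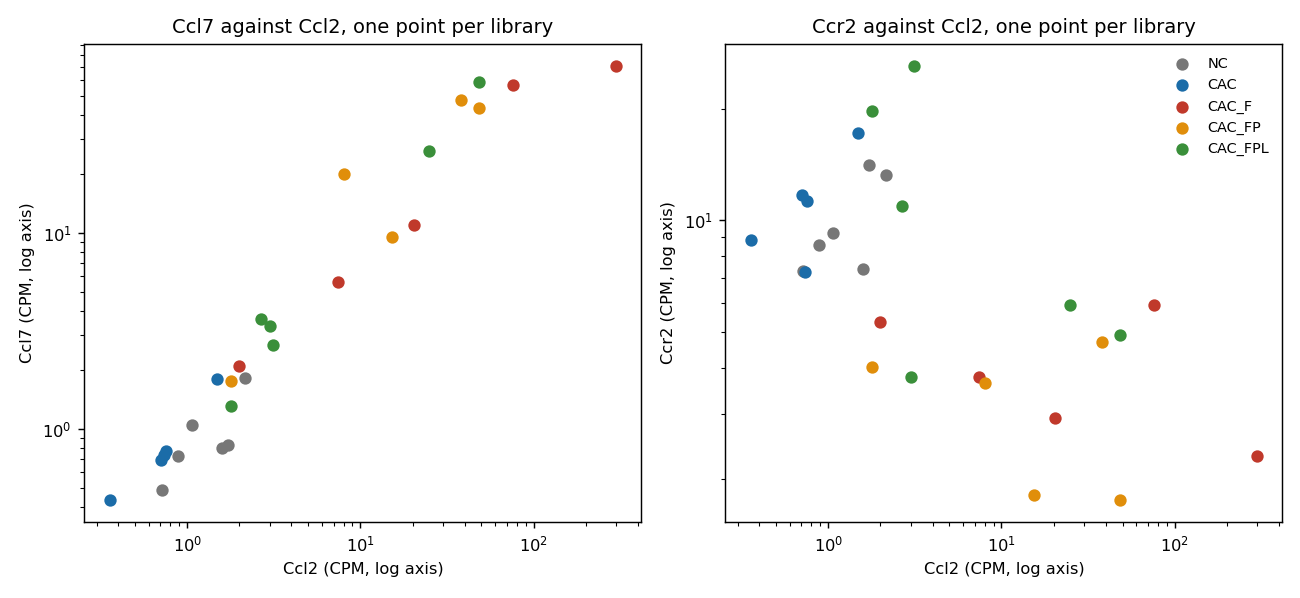
Ccl7 (left) and Ccr2 (right) against Ccl2, each in CPM on logarithmic axes, 1 point per library and 1 colour per group. Ccl7 follows Ccl2 over the whole range in every group, and the libraries with more than 5 CPM of Ccl2 have less than 6 CPM of Ccr2.

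Among 13105 named genes outside the set, the profiles closest to Ccl2 over the 27 libraries were those of Tnfaip2 (r = 0.941, rho = 0.869), Il4ra (0.932 and 0.888) and Cxcl1 (0.931 and 0.902), the last a neutrophil-attracting chemokine. The closest to Ccl7 were Ccl12 (r = 0.943, rho = 0.904), Itgam, the alpha chain of the integrin CD11b/CD18 on myeloid cells (0.935 and 0.86), and Lcn2, a neutrophil and epithelial iron-siderophore binder (0.933 and 0.811). Ccl9 was closest to the zinc transporter Slc39a14 (0.912 and 0.846), Mt1 (0.908 and 0.799) and Tnfrsf1a (0.901 and 0.861). The closest to Ccl3 was Ctsz (0.831 and 0.881), then Lilrb4a (0.824 and 0.8) and Ifitm1 (0.809 and 0.869). Ccl6 was closest to Stk3 (0.842 and 0.83), mt-Rnr2 (0.834 and 0.831) and Slc39a8 (0.831 and 0.81). Correlations were lower for Ccl4 and Ccl8. Closest to Ccl4 were Batf (0.664 and 0.619), Snhg15 (0.655 and 0.627) and Zfp513 (0.652 and 0.457). Closest to Ccl8 were Parp3 (0.686 and 0.603), C2 (0.682 and 0.561) and Calr (0.665 and 0.648). The receptors differed: Ccr1 was closest to Tlr13 (0.906 and 0.896), Mcub (0.886 and 0.857) and Tnfrsf1b (0.884 and 0.878), and Ccr2 to Map4k2 (0.893 and 0.911), Txndc16 (0.886 and 0.906) and Amz1 (0.886 and 0.883). No gene of 1 receptor's list was in the other's. The r over all libraries also includes differences between groups. After subtracting group means, r of these genes ran from 0.541 (Ccl4 and Snhg15) to 0.949 (Ccl7 and Ccl12).

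The chemokine genes between Ccl7 and Ccl8 also differed in level. Ccl11, the eosinophil attractant eotaxin, had group means of 37.8 CPM in CAC, 120 in CAC_F, 80.4 in CAC_FP and 49.2 in CAC_FPL, and Ccl12, another Ccr2 ligand, 1.14, 5.03, 9.39 and 4.96 CPM. Beside the second cluster, Wfdc17 and Wfdc18 had group means of 5.62 and 3.68 CPM in CAC and 27.8 and 37.4 CPM in CAC_F, whereas Heatr6 was at 30.7 and 31.7 CPM. Ccl5, which lies 57364 bases from Ccl6, went from 8.18 CPM in CAC to 2.99 CPM in CAC_F.

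Of the other CC chemokines in a list of 13 (11 tested), 3 rose and 4 fell in CAC_F against CAC, with a median log2 fold change of 0.53. For this and the following lists, the shares of all tested genes in that comparison were 19.0% higher and 20.2% lower, and in CAC_FP against CAC 9.68% higher and 8.9% lower. A list gene can pass the filter only through groups in which it is high, so the list counts are descriptions. Ccl12 rose by 2.13 ± 0.64 (edgeR adjusted p = 0.011), a call lost without CAC_F replicates 1 and 2 (1.20, adjusted p = 0.187). Ccl22, a ligand of Ccr4 made by dendritic cells and macrophages, fell by 1.95 on the log2 scale (SE 0.53, adjusted p = 0.00575), and Ccl28, an epithelial ligand of Ccr10, fell by 1.71 (SE 0.44, adjusted p = 0.00419). Ccl11 and Ccl17 were the other genes to rise, and Ccl5 and Ccl25 the others to fall. The total of 7 calls was 4 without CAC replicate 1 or without CAC_F replicate 1. In CAC_FP against CAC 2 rose and 3 fell: Ccl12 rose by 3.04 ± 0.66 (edgeR adjusted p = 0.00472) and Ccl22 fell by 2.98 (SE 0.55, adjusted p = 0.00201). Those 5 calls were 2 without CAC replicate 1 or CAC_FP replicate 2 or 3, and 3 without CAC replicate 4 or CAC_FP replicate 1 or 5.

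Of the chemokines of the CXC, CX3C and XC classes that mainly attract cells other than neutrophils (9 listed, 8 tested), Cxcl16 and Cxcl13 rose in CAC_F against CAC and none fell, a share of higher genes near that of all tested genes (19.0%). Cxcl16, a membrane-bound ligand of Cxcr6, rose by 1.28 ± 0.25 (edgeR adjusted p = 0.000511) and Cxcl13, which guides B cells, by 3.55 ± 0.84 (adjusted p = 0.00221). Cxcl13 and Cxcl16 were also the genes that rose in CAC_FP against CAC, but 0 were called without CAC replicate 4 or 5 or CAC_FP replicate 1, and 1 without CAC replicate 1 or 3 or CAC_FP replicate 2, 3 or 5.

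Among the 10 tested of 14 other chemokine receptors none rose and 5 fell, with a median log2 fold change of -1.21. Ccr3 passed the filter only through groups in which it was high. Its mean FPKM was 1.158 in NC, 0.68 in CAC, 0.056 in CAC_F, 0.198 in CAC_FP and 0.19 in CAC_FPL. Ccr3, the eosinophil receptor of Ccl11, fell by 3.67 (SE 0.51, adjusted p = 3.6e-05), Ccr10 by 1.79 (SE 0.28, adjusted p = 9.01e-05) and Cxcr3, a receptor of activated T cells, by 1.28 (SE 0.37, adjusted p = 0.00902). Again 5 of the 10 fell in CAC_FP against CAC, among them Ccr10 by 1.48 (adjusted p = 0.00217) and Ccr3 by 1.87 (adjusted p = 0.00915). The 5 calls were 3 in CAC_F against CAC without CAC replicate 1 or 4 or CAC_F replicate 1 or 4, and 3 in CAC_FP against CAC without CAC replicate 4 or CAC_FP replicate 1, 2 or 3. In CAC_FPL against CAC the 1 call was Ccr3, which fell by 1.899 (SE 0.44, edgeR adjusted p = 0.0312). It was lost without CAC replicate 1 (adjusted p = 0.055), 3 (0.102) or 4 (0.0606) and without CAC_FPL replicate 1 (0.0549), 4 (0.0509), 5 (0.0792) or 6 (0.052). With no filter Ccr3 was not called either (edgeR adjusted p = 0.07). The summed eosinophil markers, which include Ccr3 itself, were 4.72 to 13.5 CPM in CAC and 1.86 to 2.87 CPM in CAC_F. This sum is thus not separate from the fall of Ccr3. The part of eosinophils was not tested.

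Of the 4 tested of 5 atypical receptors, which bind chemokines without the usual signalling, Ccrl2 and Ackr1 rose in CAC_F against CAC. Ccrl2 rose by 2.70 ± 0.63 (edgeR adjusted p = 0.00204), by 1.36 without CAC_F replicate 1 (adjusted p = 0.0277), and it was not called without replicates 1 and 2 (0.47, adjusted p = 0.42). Ackr1, a chemokine binder of venules, rose by 2.46 ± 0.58 (adjusted p = 0.00222), by 1.82 without CAC_F replicate 2 (adjusted p = 0.0131), and was not called without replicates 1 and 2 (1.41, adjusted p = 0.0659). Ackr1 rose and Ackr4 fell in CAC_FP against CAC.

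Of 7 tested monocyte growth factors and inducing cytokines (9 listed), 6 rose in CAC_F against CAC and none fell, with a median log2 fold change of 2.77. Il1a, a cytokine released by damaged cells, rose by 4.97 ± 0.96 (edgeR adjusted p = 0.000455), and by 4.08 without CAC_F replicate 2 (adjusted p = 0.00173). Tnf rose by 2.77 ± 0.57 (adjusted p = 0.000765), and by 2.07 without CAC_F replicate 1 (adjusted p = 0.00399). Il34, a second ligand of the Csf1 receptor, rose by 1.43 ± 0.29 (adjusted p = 0.000598), and the other genes to rise were Il1b, Il6 and Csf1. Of the 7, 3 rose in CAC_FP against CAC, of which 1 was called without CAC replicate 4 or 5 or CAC_FP replicate 1, 2 or 3, and in CAC_FPL against CAC none did.

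Of the 9 adhesion molecules of monocyte entry, all tested, 5 rose in CAC_F against CAC and none fell, with a median log2 fold change of 1.64. Icam1 rose by 2.81 ± 0.54 (edgeR adjusted p = 0.000433), and by 2.21 without CAC_F replicate 1 (adjusted p = 0.0019). Vcam1, which holds monocytes on activated endothelium, rose by 1.896 ± 0.38 (adjusted p = 0.000584). Selp, the P-selectin of platelets and endothelium, rose by 4.36 ± 0.92 (adjusted p = 0.000862), and by 5.27 without CAC replicate 2 (adjusted p = 0.000357). Sele and Itgam were the other genes to rise. The summed endothelial markers were 177.7 to 556.1 CPM in CAC_F and 165.5 to 282.0 CPM in CAC, with 0 of 6 called. In CAC_FP against CAC 5 of the 9 rose and 1 fell, in all 3 calls without CAC_FP replicate 1, and in CAC_FPL against CAC none was called.

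Between CAC_FPL and CAC_F, 2 of the 7 growth factors and cytokines and 3 of the 9 adhesion molecules were lower, and 2 of the 10 other receptors were higher, beside 5.05% of all tested genes lower and 7.14% higher. Il1a had a log2 fold change of -3.22 ± 0.82 (edgeR adjusted p = 0.0171), and without CAC_F replicate 2 it was not called (-2.31, adjusted p = 0.0824). Icam1 had -1.89 ± 0.49 (adjusted p = 0.0184), and the call was lost without CAC_F replicate 1 (adjusted p = 0.0962) or 2 (0.0576) or CAC_FPL replicate 1 (0.0517) or 2 (0.052). Ccr3 had 1.77 ± 0.47 (adjusted p = 0.0206), with the call lost without CAC_F replicate 2 (0.0643) or CAC_FPL replicate 2 (0.0597). Ccrl2 had -2.73 ± 0.59 (adjusted p = 0.0101), and was not called without CAC_F replicate 1 (-1.38, adjusted p = 0.0672). The 3 calls among adhesion molecules were 0 without CAC_F replicate 1 or 2 or CAC_FPL replicate 1 or 2, and 1 without CAC_FPL replicate 3 or 5. Of these lists, no gene was called between CAC_FP and CAC_F or between CAC_FPL and CAC_FP in edgeR.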

How the data were processed

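Stranded mRNA libraries of 27 mouse colon samples were analysed. The authors deposited raw read counts and FPKM values per gene for all libraries in 1 table of 39971 genes. Tools listed in the submitters' processing notes are cutadapt 1.9, HISAT2 and FastQC. Counting tool, annotation and build: not given in the sources used here. All libraries carry 1 batch label, and each is labelled a separate sample.

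Counts were tested here with edgeR 4.0.16 (R 4.3.3): TMM scaling, 15080 genes that reached an FPKM of 1 in 5 or more libraries, 1 quasi-likelihood fit of all groups, and Benjamini-Hochberg adjustment at 0.05 over all tested genes in each of 7 comparisons. The SE is the log2 fold change divided by the square root of F and is approximate. Levels between genes were compared in deposited FPKM. Alternatives used limma 3.58.1, DESeq2 1.42.0, other filters and scalings, a replicate block, and left-out libraries, and limma used log2(FPKM + 1) or log2(FPKM + 0.1). Quantile-normalized voom and fits without pairs of libraries were added after seeing the data. The code was tested on simulated counts for CAC_F against CAC (15080 genes): 54% of 100 genes changed by 1 log2 unit and 87% of 100 changed by 2 were recovered, and 0.047% of unchanged genes were called. Far fewer genes changed there than the 39.1% called in the data. Libraries of a group shared 1 mean per gene, with none set apart. The rates are thus a check of the code and not those of the real comparison.

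The 9 genes and all lists were chosen with earlier results of these data known. From each pathway list up to 3 called genes with the smallest adjusted p are given with values, and the remaining called genes were named after their values were seen. Neighbours lie within 100 kb, and the 3 genes most like each of the 9 are those with the highest Pearson correlation of log2 CPM. No pair of libraries in a group was a duplicate: over 60 pairs the lowest chi-square ratio to sampling noise was 18.1. P-values set a difference between groups against the spread between libraries within groups.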

Additional observations from a re-analysis of the deposited data

Results flagged for a closer look

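In 5 of 45 groups of values (9 genes in 5 groups), 1 library lay far from the others by Dixon's test at 95%. With normally distributed values about 1 in 20 would be flagged. The test used CPM without a log, for which that rate need not hold, and all 5 flagged values were high. The count is not read as an excess. Ccl2 in CAC_F replicate 1 was at 299.4 CPM, with the other 4 libraries at 1.99 to 76.0 CPM. Ccl3 in CAC_FP replicate 1 was at 6.02 CPM (others 0.64 to 2.06 CPM), and Ccl4 in the same library was at 1.48 CPM (others 0.266 to 0.603 CPM). Ccl7 in CAC replicate 1 was at 1.80 CPM (others 0.431 to 0.766 CPM). Ccl8 in CAC_FPL replicate 6 was at 122.8 CPM (others 20.0 to 50.2 CPM). The causes were not tested.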

How the results depend on the processing

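The number of the 9 genes called stayed at 4 to 7 in CAC_F against CAC over 22 alternatives (main value 6) and at 0 in CAC against NC and in CAC_FP against CAC_F over all alternatives run. In CAC_FP against CAC (main value 5) it was 3 with a mean FPKM of at least 5, where 6 of the 9 genes were tested. In CAC_FPL against CAC_FP (main value 0) it was 1 with DESeq2 and 1 with voom and quality weights. In CAC_FPL against CAC (main value 1) it was 3 with DESeq2, 2 without both CAC replicate 2 and CAC_FPL replicate 3, and 0 with no filter, voom with quality weights, limma on either FPKM scale, the replicate block, quantile normalization or only the groups compared, and it ranged from 0 to 3 when single libraries were left out. In CAC_FPL against CAC_F (main value 2) it was 1 with limma on either FPKM scale and with the replicate block, and 0 with no filter, with the filter on mean FPKM, quantile normalization, only the groups compared, or without either pair of libraries, and it ranged from 0 to 3 when single libraries were left out. With the filter on mean FPKM, Ccl3, Ccl4 and Ccr2 were not tested in any comparison, so a call of these genes could not appear there. The causes were not tested. Some log2 fold changes reversed, none of the reversed values being called. In CAC_FP against CAC_F, Ccl2 was 0.016 with voom and quality weights and ranged from -2.36 (without CAC_FP replicate 3) to 1.16 (without CAC_F replicates 1 and 2). There Ccl7 was 1.00 with voom and quality weights, 0.076 and 0.081 on the FPKM scales, 0.14 with quantile normalization and 1.96 without CAC_F replicates 1 and 2, and ranged from -0.65 to 0.37 without single libraries. Ccl8 in CAC_F against CAC was 0.0033 and 0.0044 on the FPKM scales and ranged from -0.29 (without CAC_F replicates 1 and 2) to 0.12 (without CAC replicate 3). Ccr2 in CAC_FPL against CAC was -0.030 and -0.14 on the FPKM scales, -0.24 with quantile normalization and -0.30 without CAC replicate 2 and CAC_FPL replicate 3, and ranged from -0.31 to 0.28 without single libraries. Ccl2 in CAC_FPL against CAC_F ranged from -3.52 (without CAC_FPL replicate 6, called) to 0.48 (without CAC_F replicates 1 and 2).

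Replicate numbers did not pair the libraries: over 51 same-numbered pairs the correlation of deviations from the group means ran from -0.454 to 0.349 (median 0.00537, 11 above 0.1). With the replicate block 6 of the 9 genes were called in CAC_F against CAC, 5 in CAC_FP against CAC, 0 in CAC_FPL against CAC and 1 in CAC_FPL against CAC_F. DESeq2 gave no adjusted p for Ccl4 in CAC_FP against CAC_F and in CAC_FPL against CAC_F, or for Ccl3 in the latter. Depth limits Ccl3 and Ccl4 most, with 0 to 24 counts of Ccl3 in the CAC libraries.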
